A study of Mus musculus with 9 samples.

Results

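The genes described here are T, Sp5, Cdx1, Cdx2 and Cdx4, which are 5 of the 20660 mouse genes named on the arrays. They were chosen by symbol: each array probe that is not a control was assigned to a gene through its accession, and all probes of these genes were kept. Each gene had 1 probe, printed in 1 spot, and no spot of theirs was marked as saturated or as an outlier on any of the 9 arrays. All 5 probes passed the filter, which asked for a signal well above background, as the scanner software marks it, on at least 3 of the 9 arrays. Cdx4 passed it through the CHIR99021 arrays alone.

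Every sample was total RNA of J1 mouse embryonic stem cells, a single line of the 129S4/SvJae strain adapted to gelatin and kept with leukaemia inhibitory factor (LIF), a cytokine that maintains pluripotency, at 1000 U/mL. The cells were kept for 24 h with DMSO (the vehicle), with 3 µM CHIR99021 or with 1 mM AICAR, and 3 samples of each group were put on one-colour Agilent arrays. CHIR99021 inhibits the kinase GSK3, and AICAR is a nucleoside whose phosphorylated form mimics AMP and thereby switches on the kinase AMPK. Whether numbered samples were separate cultures is not in the labels, so p-values cover the variation among samples as labelled, part of which may be technical. The 3 groups were hybridised on 3 different slides and scanned separately, so slide and treatment cannot be told apart in any comparison below.

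Between 62.77% and 67.24% of spots were well above background on an array. Correlations across features were 0.9952 to 0.9968 within groups and 0.9731 to 0.9828 between them. All 10 of 10 pluripotency markers were well above background on every array. Their summed signal was 287 to 292 times the 75th percentile of the array in DMSO. It was 290 to 302 times in CHIR99021 and 313 to 323 times in AICAR. Against DMSO, in the test described below, 4 were higher and 4 lower in CHIR99021, and 6 higher and 3 lower in AICAR. Over all features 30.4% were called higher and 20.5% lower in CHIR99021, and 30.9% and 29.6% in AICAR. Pou5f1, the core pluripotency factor, differed from DMSO by 0.18 ± 0.18 in CHIR99021 and 0.46 ± 0.18 in AICAR on the log2 scale (adjusted p of 0.419 and 0.0505), and the latter stayed uncalled under 15 of 22 other settings. Nanog, another core factor, differed by 0.12 ± 0.10 in CHIR99021 (adjusted p = 0.368) and was higher by 0.29 ± 0.10 in AICAR (adjusted p = 0.0413), a call that was lost under 11 of 22 other settings. In RNA of whole cultures, more cells expressing a gene and more RNA of it per cell cannot be told apart.

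Wnt ligands, or inhibition of GSK3, stabilise beta-catenin, which enters the nucleus and switches on genes bound by TCF/LEF factors. In the embryo this signal acts in the primitive streak and later in the tail bud, where the body axis grows. T (Brachyury) is a T-box transcription factor that marks the streak, the nascent mesoderm and the notochord. Sp5 is a zinc finger factor of the Sp family and a direct target of beta-catenin in many tissues. Cdx1, Cdx2 and Cdx4 are the caudal homeobox genes, which act upstream of the Hox genes in posterior patterning. Cdx2 is also required for the trophectoderm of the blastocyst, and Cdx1 and Cdx2 act in the adult intestine.

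Promoters are shown because T and Sp5 are known to respond to beta-catenin through TCF/LEF sites. RefSeq promoter windows of build GRCm38.p6, from 250 bases before to 50 bases after the gene start, matched 4 of the 5 genes, all but Cdx1. Each is printed 5′ to 3′ on the strand of the gene, and capitals mark TCF/LEF letters (AACAAAG and its variants ATCAAAG and TACAAAG and TTCAAAG, searched on both strands). T lies at chr17:8434173-8434472 on the plus strand, Sp5 at chr2:70474673-70474972 on the plus strand and Cdx2 at chr5:147307200-147307499 on the minus strand, the last shown as a window with no match.
T: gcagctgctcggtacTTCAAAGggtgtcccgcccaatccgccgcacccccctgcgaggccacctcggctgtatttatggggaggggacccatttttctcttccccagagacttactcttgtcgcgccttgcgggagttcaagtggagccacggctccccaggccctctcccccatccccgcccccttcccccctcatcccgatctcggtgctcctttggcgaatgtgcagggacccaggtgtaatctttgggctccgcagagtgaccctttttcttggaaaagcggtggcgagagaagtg
Sp5: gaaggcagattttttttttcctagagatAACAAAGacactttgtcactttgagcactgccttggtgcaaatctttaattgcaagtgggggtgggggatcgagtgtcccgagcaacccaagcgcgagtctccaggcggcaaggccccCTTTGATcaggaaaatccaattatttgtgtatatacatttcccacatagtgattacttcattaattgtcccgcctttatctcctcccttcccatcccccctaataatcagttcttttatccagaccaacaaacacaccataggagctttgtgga
Cdx2: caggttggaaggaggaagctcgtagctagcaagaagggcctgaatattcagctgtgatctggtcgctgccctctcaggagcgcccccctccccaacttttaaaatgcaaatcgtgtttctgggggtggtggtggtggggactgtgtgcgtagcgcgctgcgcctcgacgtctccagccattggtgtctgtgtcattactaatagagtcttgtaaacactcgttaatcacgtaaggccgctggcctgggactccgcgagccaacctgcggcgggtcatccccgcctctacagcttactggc

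The T window held 1 TCF/LEF match, whose leftmost base lies 235 bases before the start. The Sp5 window held 2 matches, 222 and 104 bases before the start, the second on the opposite strand. The Cdx2 and Cdx4 windows held none. Of all 32851 promoter windows of this length, 16.9% held at least 1 such match and 1.94% held 2 or more. The Cdx letters TTTATG occurred once among the 4 windows, in T, 178 bases before the start, and were present in 11.9% of all windows. The GC box letters GGGCGG, to which Sp factors bind, occurred 2 times, both in T, and were present in 35.7% of windows. The T-box letters AGGTGTGA were in none of the 4 and in 1.28% of all windows. None of these matches overlapped another. A match describes the letters in a window and does not show that a factor binds there.

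The comparison of CHIR99021 and DMSO asks what inhibition of GSK3 changes in these cells. T, Sp5, Cdx1, Cdx2 and Cdx4 were each higher in all 3 CHIR99021 arrays than in any DMSO array. The share of all features whose groups stand apart in this way is not given, here or below. By the fitted difference T ranked first, Sp5 at place 2, Cdx2 at place 5 and Cdx1 at place 9 among the rises of 26875 features, some of which have a dim side that sets their size. T, Sp5, Cdx1 and Cdx2 passed the threshold, an adjusted p under 0.05 from one limma fit of the 9 arrays with Benjamini-Hochberg adjustment over all features, where 30.4% of features were called higher and 20.5% lower. Levels below are log2 values of the processed signal minus the 75th percentile of the array, so that 0 is the 75th percentile, and differences are log2 differences of these levels with the standard error of the fit.

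T gave processed signals of 8.962, 13.65 and 15.80 on the DMSO arrays and 3650, 3683 and 3618 on the CHIR99021 arrays. Its DMSO signals lay at the edge of detection, with 1 of the 3 not well above background, while the CHIR99021 signals were within a few percent of each other. The level rose from -5.61 ± 0.43 to 2.66 ± 0.02 (SD, n = 3), a difference of 8.27 ± 0.23 or 309-fold, with a 95% interval of 214 to 445 (adjusted p = 1.87e-07). The spread was on the dim side, with an SD of 0.43 in DMSO and 0.02 in CHIR99021.

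Sp5 was readily measured in every group. Its signals were 72.11, 87.46 and 75.14 in DMSO and 17470, 18290 and 18690 in CHIR99021. The level rose from -2.97 ± 0.15 to 4.97 ± 0.04, a difference of 7.94 ± 0.07 (adjusted p = 1.43e-09). This is 245-fold, with an interval of 218 to 277. The nearest arrays of the groups lay 7.72 log2 units apart.

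Cdx1 stood above the 75th percentile of the array with the vehicle alone, at 0.19 ± 0.05 in DMSO. Its signals of 692.9, 721.7 and 671.6 in DMSO became 61220, 59200 and 59430 in CHIR99021, and the groups lay far apart. The difference was 6.51 ± 0.05, or 91-fold with an interval of 84.5 to 97.9 (adjusted p = 3.1e-10).

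Cdx2 gave signals of 18.41, 14.77 and 10.56 in DMSO, all 3 well above background but dim, and of 2201, 1825 and 2253 in CHIR99021. The level rose by 7.27 ± 0.33, from -5.42 ± 0.40 to 1.85 ± 0.16, which is 155-fold with an interval of 91.9 to 260 (adjusted p = 1.59e-06). Cdx4 was not well above background on any DMSO array, at 4.380, 2.317 and 2.755, and was dim but well above background on all 3 CHIR99021 arrays, at 29.49, 26.83 and 27.52. Its rise is therefore a bound, at least 3.27-fold, obtained by setting its CHIR99021 level against the dimmest probe still marked well above background on each DMSO array. No test is given for it, since it passed the filter only through the group where it was high. With the 5th percentile of such probes as the floor the bound was 2.08-fold.

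The dim groups limit these sizes. With normexp background correction, which adds an offset of 50, the differences in CHIR99021 were 5.67 for T, 7.03 for Sp5, 6.40 for Cdx1 and 5.05 for Cdx2, each still past the threshold, and 0.55 for Cdx4.

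**Figure D1:**
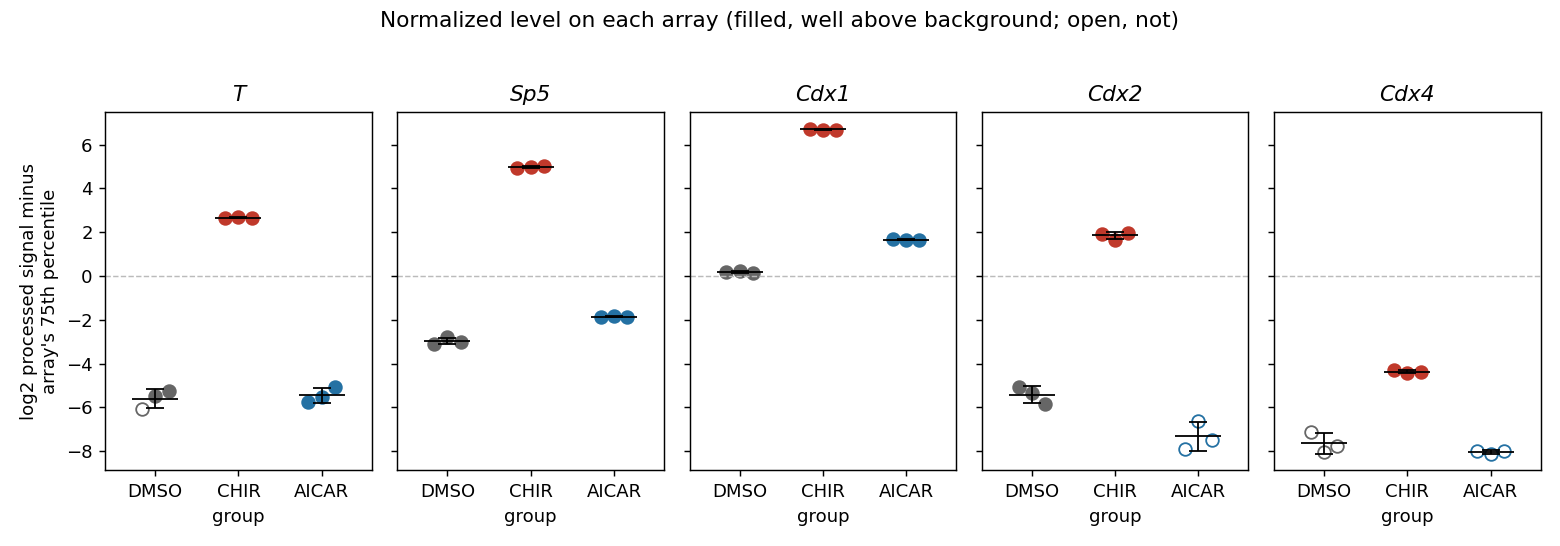
Level of T, Sp5, Cdx1, Cdx2 and Cdx4 on each of the 9 arrays, as log2 processed signal minus the 75th percentile of the array (dashed line at 0); black bars are group means with SD (n = 3), and open points are spots not well above background. The CHIR99021 arrays stand above all other arrays in each panel, the AICAR arrays stand above DMSO for Sp5 and Cdx1, below DMSO for Cdx2, and overlap DMSO for T and Cdx4.

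The comparison of AICAR and DMSO asks the same of AICAR. The 5 genes went different ways: Sp5 and Cdx1 rose, Cdx2 fell, T did not pass the test, and Cdx4 was too dim to give a fold. Over all features 30.9% were called higher and 29.6% lower in this comparison, so 2 rises and 1 fall among 5 genes are close to the background. These values share the DMSO arrays with those above.

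Sp5 signals in AICAR were 168.3, 164.4 and 157.1, each above the highest DMSO signal of 87.46. The difference was 1.11 ± 0.07, or 2.16-fold with an interval of 1.92 to 2.43 (adjusted p = 7.97e-06). Cdx1 signals were 1982, 1846 and 1773, against at most 721.7 in DMSO. The difference was 1.47 ± 0.05, or 2.77-fold with an interval of 2.57 to 2.98 (adjusted p = 2.85e-07). By size the rises stood at places 1561 and 806 of 26875. With normexp the difference of Sp5 was 0.71 and that of Cdx1 1.37.

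Cdx2 signals were 2.596, 6.004 and 3.165 in AICAR, where no array was well above background although the software marked each as positive and significant. All 3 lay below the lowest DMSO signal of 10.56. The level was -7.33 ± 0.65, lower than DMSO by a fitted difference of -1.91 ± 0.33 (adjusted p = 0.00127), and as a bound it fell at least 1.54-fold. This call rests on dim spots: the bound came to 1.01-fold with the 5th percentile floor, and with normexp the difference was -0.127 with an adjusted p of 0.174.

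T signals in AICAR were 11.58, 12.83 and 16.78, all within or next to the DMSO range of 8.962 to 15.80. The difference was 0.17 ± 0.23 with an interval of -0.36 to 0.69 (adjusted p = 0.551), which leaves room for changes of either sign near the detection limit. Cdx4 signals were 2.415, 2.101 and 2.207 in AICAR, not well above background on any array, so no fold is given against DMSO.

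The direct comparison of the treatments gave the order of levels within each gene. For Sp5 and Cdx1 the order was DMSO, AICAR, CHIR99021, and each neighbouring step passed the test. For Cdx2 it was AICAR, DMSO, CHIR99021, with the lower step on dim spots as above. For T the lower levels in DMSO and AICAR did not differ beyond their spread, and for Cdx4 neither of these was measurable. CHIR99021 exceeded AICAR by 8.10 ± 0.23 for T (adjusted p = 1.21e-07), 6.83 ± 0.07 for Sp5 (adjusted p = 4.68e-09) and 5.04 ± 0.05 for Cdx1 (adjusted p = 2.31e-09). Cdx2, dim on every AICAR array, was at least 238-fold higher in CHIR99021, or 156-fold with the 5th percentile floor. Its fitted difference, which uses those dim values, was 9.18 ± 0.33 (adjusted p = 3.36e-07), and the bounds themselves were not tested. Cdx4 was at least 3.19-fold higher in CHIR99021, or 2.09-fold with that floor. Of all features 36.2% were called higher and 24.6% lower in CHIR99021 than in AICAR. With normexp these differences were 5.62 for T, 6.32 for Sp5, 5.03 for Cdx1, 5.18 for Cdx2 and 0.64 for Cdx4.

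**Figure D2:**
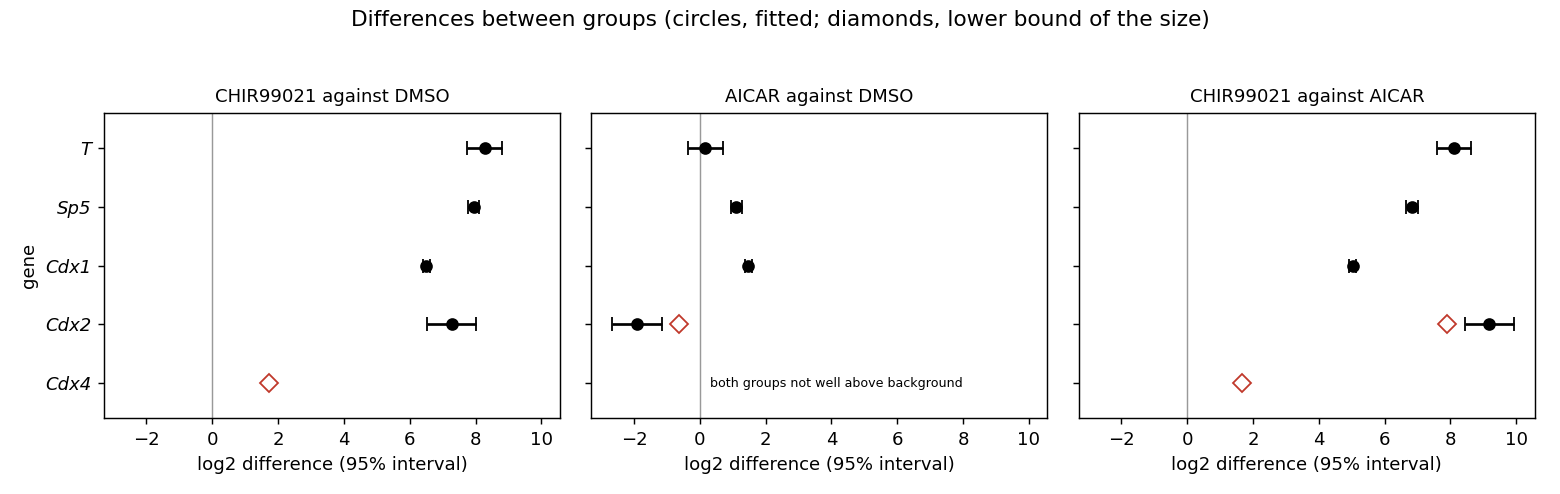
Log2 differences between groups for each gene in the 3 comparisons; circles are fitted differences with 95% intervals and diamonds are the bounds used where the dimmer group was not well above background (alone for Cdx4). T spans 0 in AICAR against DMSO, Cdx2 lies below 0 there with a bound close to 0, and all 5 genes lie to the right in both comparisons with CHIR99021.

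**Figure D3:**
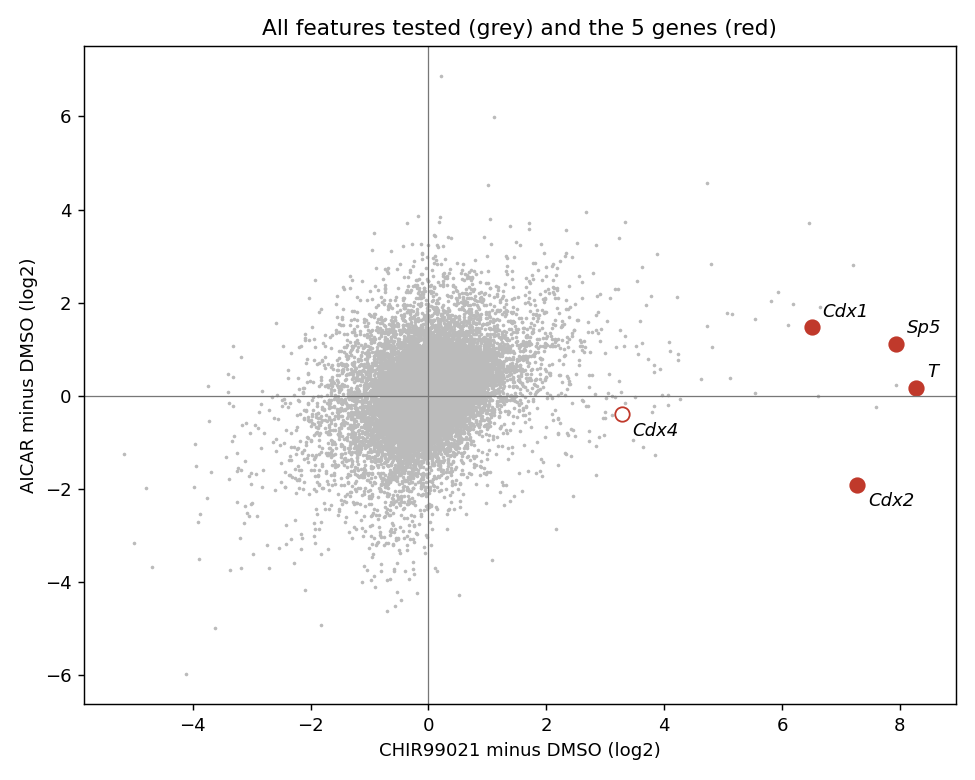
Log2 difference of CHIR99021 minus DMSO against AICAR minus DMSO for all 26875 features (grey) and for the 5 genes (red; open for Cdx4, which was not well above background in DMSO or AICAR, as Cdx2 was not in AICAR). The axes share the DMSO arrays; T, Sp5, Cdx1 and Cdx2 sit at the right edge and spread vertically from -1.91 for Cdx2 to 1.47 for Cdx1.

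To find genes with a like pattern, values were centred on the DMSO mean and the root mean square difference over the 9 arrays was taken against 16051 features with a symbol. Dkk4, a secreted Wnt antagonist, was nearest to T, at 0.232 log2 units, and nearest to Sp5, at 0.582. Its signals were 6.662, 8.747 and 10.27 in DMSO, 1882, 2034 and 1930 in CHIR99021 and 7.58, 8.33 and 14.05 in AICAR, so that only the CHIR99021 arrays stand apart. Btla, a receptor of lymphocytes, came next for both, at 0.597 and 0.825, and was also nearest to Cdx2, at 1.05. Btla signals were 2.22 to 3.337 in DMSO and 458.6 to 488.2 in CHIR99021, at least 55.2-fold higher, or 35.2-fold with the 5th percentile floor. Evx1, a homeobox gene of the posterior streak, was the third for T at 1.00 and the next for Cdx2 at 1.23. It was at least 24-fold higher in CHIR99021, or 15.3-fold with that floor. Btla and Evx1 were not well above background on any DMSO or AICAR array, and Dkk4 was on 1 array of each group. These distances therefore run partly over dim spots.

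The genes nearest to Cdx1 were Cnga4, a subunit of a cyclic nucleotide gated channel (0.403), Srarp (0.464) and Tlx2, a homeobox gene (0.52). Cnga4 and Srarp were not well above background on any DMSO array, and Cnga4 was on 1 AICAR array. Their distances too run partly over dim spots. Tlx2 signals were 18.45 to 19.95 in DMSO, 1014 to 1031 in CHIR99021 and 66.43 to 84.90 in AICAR, the same order of groups as Cdx1. Cnga4 was also the third for Sp5, at 0.928. For Cdx4 the distance runs mostly over dim spots, since it was not well above background on the DMSO and AICAR arrays, and Foxb1 was not either. The genes nearest to it were Foxb1, a forkhead factor (0.199), Nkx1-2, a homeobox gene of the tail bud (0.235), and Bst1, a cell surface enzyme (0.293). Nkx1-2 signals were 16.63 to 32.5 in DMSO, 167 to 190 in CHIR99021 and 12.3 to 18.66 in AICAR. Its CHIR99021 arrays stood apart, as those of Cdx4 did. Among the 5 genes themselves T and Sp5 were closest, at 0.624, and T and Cdx4 farthest apart, at 2.93.

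The 2 nearest protein-coding genes on each side in the RefSeq table gave 20 neighbours, of which 16 were tested. In CHIR99021, 9 were higher and 3 lower than DMSO, where 30.4% and 20.5% of all features were called, with a median difference of 0.37 beside 0.07 over all features. In AICAR, 7 were higher and 3 lower, where 30.9% and 29.6% of all features were called, with a median of 0.22 beside 0.03. The genes counted as higher in each treatment include Erich2, which passed the filter through the CHIR99021 arrays alone. In CHIR99021 Gad1, near Sp5, had the largest difference of the neighbours tested, and in AICAR Pdgfrb, near Cdx1, had the largest. Gad1, which makes the transmitter GABA and lies 2 genes after Sp5, had signals of 14.45, 15.44 and 17.84 in DMSO, 492.5, 515.3 and 599.2 in CHIR99021 and 86.49, 42.48 and 37.55 in AICAR. The differences from DMSO were 5.15 ± 0.26 in CHIR99021 (adjusted p = 3.02e-06) and 1.75 ± 0.26 in AICAR (adjusted p = 0.000629).

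Erich2, the next gene after Sp5, was not well above background on any DMSO or AICAR array and gave 39.64, 35.78 and 36.5 in CHIR99021, at least 4.36-fold higher than DMSO, or 2.78-fold with the 5th percentile floor. Near Cdx1, the amino acid transporter gene Slc6a7 rose by 2.05 ± 0.13 in CHIR99021 and by 0.51 ± 0.13 in AICAR. Pdgfrb, a growth factor receptor on the other side of Cdx1, rose by 2.13 ± 0.07 and 2.32 ± 0.07, with adjusted p-values of 2.68e-07 and 1.77e-07. Near T, the phosphodiesterase gene Pde10a rose by 1.33 ± 0.12 in CHIR99021 and 1.20 ± 0.12 in AICAR. Genes near Cdx2 and Cdx4 went the other way where they were called: the homeobox gene Gsx1, near Cdx2, fell by 1.08 in CHIR99021 and fell by 1.48 in AICAR. Tsx, near Cdx4, fell by 1.22 in CHIR99021 and fell by 1.56 in AICAR, and Nap1l2, beside Cdx4, fell by 0.64 and fell by 1.10. The direct neighbours Urad of Cdx2 and Chic1 of Cdx4 did not pass the test with the probe used, at -0.04 (adjusted p = 0.811) and -0.13 (adjusted p = 0.253) in CHIR99021. Another probe of Chic1 was lower in AICAR, by -0.61 (adjusted p = 0.000643).

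**Figure D4:**
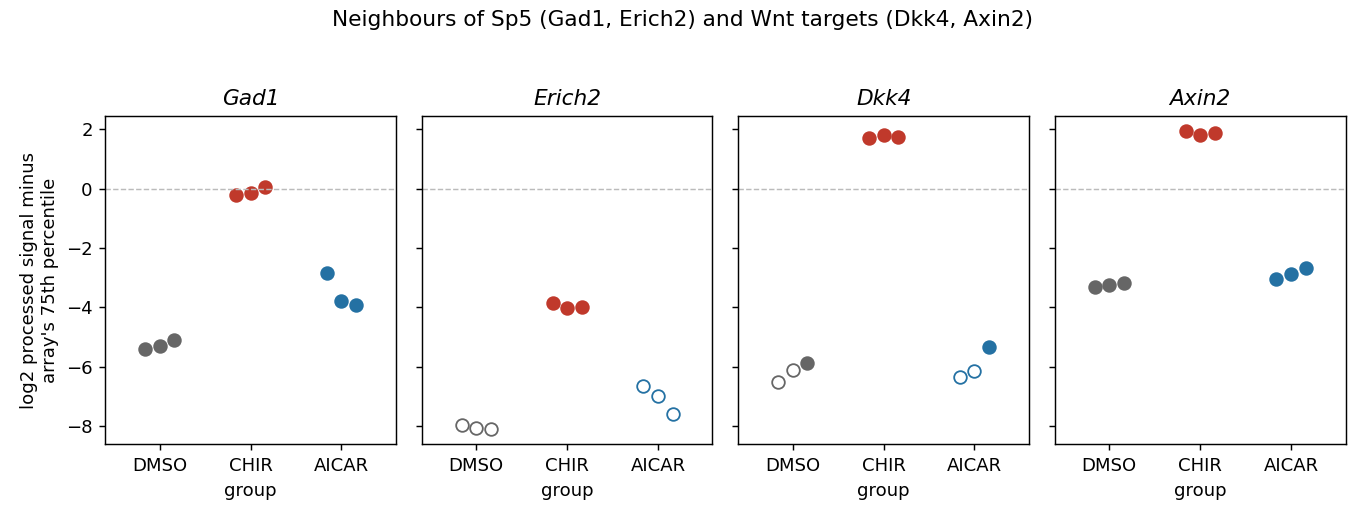
Level on each array, as in the plot of the 5 genes, for Gad1 and Erich2, which lie beside Sp5, and for the Wnt targets Dkk4 and Axin2; open points are not well above background. The CHIR99021 arrays are highest in all 4 panels, and for Gad1 the AICAR arrays lie between the other groups.

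The lists below are read beside the shares of all features called and beside the medians of all features. The shares were 30.4% higher and 20.5% lower in CHIR99021 and 30.9% and 29.6% in AICAR, and the medians 0.07 and 0.03. The called counts include genes that passed the filter through a single treatment. These were Hoxd9, Hoxc9 and Evx1 through the CHIR99021 arrays and Msgn1 through the AICAR arrays. Of 20 known targets of Wnt/beta-catenin signalling other than the 5 genes, 18 were tested. In CHIR99021, 15 of the 18 were higher and 2 lower, with a median difference of 1.10. Dkk4 rose by 7.93 ± 0.26 and the ubiquitin ligase gene Rnf43 by 2.78 ± 0.06. With normexp the difference of Dkk4, dim in DMSO, was 5.13. Axin2, a scaffold of the beta-catenin destruction complex, rose by 5.12 ± 0.09 (adjusted p = 3.27e-08), and by 3.83 on its other probe. Of the TCF/LEF factors themselves, Tcf7 rose by 1.07 ± 0.08, while Lef1 was at -0.14 ± 0.06 with an adjusted p of 0.078. It stayed uncalled under 18 of 22 alternatives and was called lower without DMSO replicate 3. In AICAR 8 were higher and 6 lower, with a median of 0.24. Lef1 fell by 2.45 ± 0.06 there, from signals of 3197 to 3641 in DMSO to 568.6 to 650.3. The growth regulator Myc fell by 3.72 ± 0.08 in AICAR and was also lower in CHIR99021, at -0.59 ± 0.08 (adjusted p = 0.000625). Rnf43 was higher in AICAR too, by 1.37 ± 0.06 (adjusted p = 7.41e-07). Axin2 was at 0.39 ± 0.09 in AICAR (adjusted p = 0.00711) with one probe and at -0.23 (adjusted p = 0.31) with the other.

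Other regulators of the primitive streak were higher in CHIR99021 in 10 of 15 genes and lower in 2, and higher in AICAR in 11 and lower in 3. The shares of all features were 30.4% higher and 20.5% lower in CHIR99021 and 30.9% and 29.6% in AICAR. The median differences were 0.45 and 0.72, the latter 0.62 with a dim gene set at its bound, beside 0.07 and 0.03 over all features. Evx1 has been described, and Gsc, a homeobox gene of the organiser, rose by 2.00 ± 0.20 in CHIR99021 and 2.58 ± 0.20 in AICAR. Snai1, which drives the epithelial to mesenchymal transition, rose by 1.67 ± 0.07 in CHIR99021 and 1.27 ± 0.07 in AICAR. The T-box gene Eomes, which acts with T in the streak, rose by 1.15 ± 0.06 in CHIR99021 and 0.72 ± 0.06 in AICAR. Foxa2, a forkhead factor of endoderm and node, fell by 2.43 ± 0.27 in AICAR. It was well above background on 2 of 3 AICAR arrays, and with normexp the difference was -0.645.

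The genes of the tail bud and of axis elongation were mixed, with 6 of 18 higher and 8 lower in CHIR99021 and a median of -0.10 beside 0.07 over all features. The share higher is close to the 30.4% of all features. Evx1 led the rises, while the Notch ligand gene Dll1 fell by 3.32 ± 0.06. Hes3 fell at least 3.62-fold, or 2.33-fold with the 5th percentile floor. In AICAR 4 were higher and 7 lower, with a median of -0.06. Wnt8a, a Wnt ligand of the posterior embryo, fell by 3.57 ± 0.07 there, and with normexp its difference was -1.71.

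The Hox genes, which Cdx proteins regulate in the embryo, were higher in CHIR99021 in 20 of 27 tested and lower in 1, with a median of 1.33 beside 0.07. Hoxd9 was at least 4.06-fold higher (2.59-fold with the 5th percentile floor), Hoxd4 at least 9.09-fold higher (5.87-fold), and Hoxb8 rose by 3.64 ± 0.33. Hoxb8 was well above background on 2 of 3 DMSO arrays, and with normexp its difference was 1.575. In AICAR 8 were higher and 13 lower, with a median of 0.03. Hoxb1 fell at least 6.54-fold (4.3-fold with that floor) and Hoxb2 by 3.70 ± 0.05, where normexp gave -1.57. Hoxd4 was higher in AICAR too, at least 2.71-fold (1.75-fold). Between the treatments 24 of the 27 were higher in CHIR99021, where 36.2% of all features were, with a median of 2.45, or 1.74 with dim genes set at their bounds. Of the 39 Hox genes on the arrays 12 did not pass the filter.

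Paralogues of T and Sp5 were read next. Among the other T-box genes 7 of 13 were higher and 3 lower in CHIR99021, with a median of 0.61, or 0.42 with bounds, and 11 were higher and 1 lower in AICAR, with a median of 0.68, or 0.56 with bounds. The lower share in CHIR99021 is close to the 20.5% of all features called lower, and the shares of all features called higher were 30.4% and 30.9%. Tbx4, a gene of the hindlimb and allantois, fell by 1.83 ± 0.15 in CHIR99021. Tbx1 rose by 1.56 ± 0.15 in AICAR and 0.80 ± 0.15 in CHIR99021. Tbx15 in CHIR99021 and Tbx18 in AICAR were called higher, but no bound remained with the 5th percentile floor, so no fold is given. Among the other Sp genes 4 of 7 were higher and 1 lower in each treatment, with medians of 0.61 and 0.29 beside 0.07 and 0.03 over all features. Sp8, a factor of limb and tail bud outgrowth, rose by 1.18 ± 0.10 in CHIR99021 and fell by 1.08 ± 0.10 in AICAR, where its other probe was at -0.08 (adjusted p = 0.339). Sp6 rose by 0.90 ± 0.07 and 1.14 ± 0.07, and Sp3 by 0.82 ± 0.06 in CHIR99021 and 0.42 ± 0.06 in AICAR. Of the 3 other ParaHox genes 2 were tested: Gsx1 fell in both treatments, as above, and Gsx2, well above background on 1 of the 3 CHIR99021 arrays, gets no fold. Both calls of Gsx2 as higher were lost on leaving out DMSO replicate 2 or 3, with adjusted p-values up to 0.0853 and 0.257 over all alternatives.

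Genes of the intestinal epithelium, where Cdx1 and Cdx2 act in the adult, were mixed: 3 of 11 were higher and 5 lower in CHIR99021, with a median of -0.05 beside 0.07 over all features. The share higher is close to the 30.4% of all features. The keratin gene Krt20 fell by 1.94 ± 0.05, Clca1 by 1.46 ± 0.15 and the lactase gene Lct by 1.10 ± 0.05. In AICAR 5 were higher and 3 lower, with a median of 0.18. Krt20 rose by 1.21 ± 0.05 and the surface antigen gene Gpa33 fell by 0.83 ± 0.08.

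Because Cdx2 also marks the trophectoderm, 14 markers of that tissue were read beside it. Elf5, Hand1, Tpbpa and Plac1 did not pass the filter. The others gave 4 higher and 3 lower in CHIR99021 and 6 higher and 2 lower in AICAR, with medians of -0.06 and 0.69. Their summed signal was 16.5 to 17.1 times the 75th percentile in DMSO, 22.6 to 23.6 times in CHIR99021 and 29.1 to 29.4 times in AICAR. This sum weighs bright genes most. Tfap2c stood highest, at a level of 3.301 in DMSO, 3.884 in CHIR99021 and 3.965 in AICAR. Of 9 primitive endoderm markers 4 were higher and 3 lower in CHIR99021 and 5 and 3 in AICAR. Their summed signal was 11.4 to 12.5 times the 75th percentile in DMSO, 15 to 15.9 times in CHIR99021 and 14.4 to 15.9 times in AICAR. Lama1 stood highest there, at levels of 3.469, 3.838 and 3.834, so neither sum stands for its list as a whole. Of 9 fibroblast markers 7 were tested, since Postn and Lum did not pass the filter. Of the 7, 2 were higher and 2 lower in CHIR99021 and 3 and 3 in AICAR. Their summed signal was 2.14 to 2.29 times the 75th percentile in DMSO, 2.32 to 2.46 times in CHIR99021 and higher in AICAR, at 3.37 to 4.02 times. Thy1 stood highest in this list, at levels of 0.335, 0.133 and 1.243. Pdgfrb, given above as a gene near Cdx1, is also one of these markers. The part of other cell types in the values of the 5 genes was not tested.

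**Figure D5:**
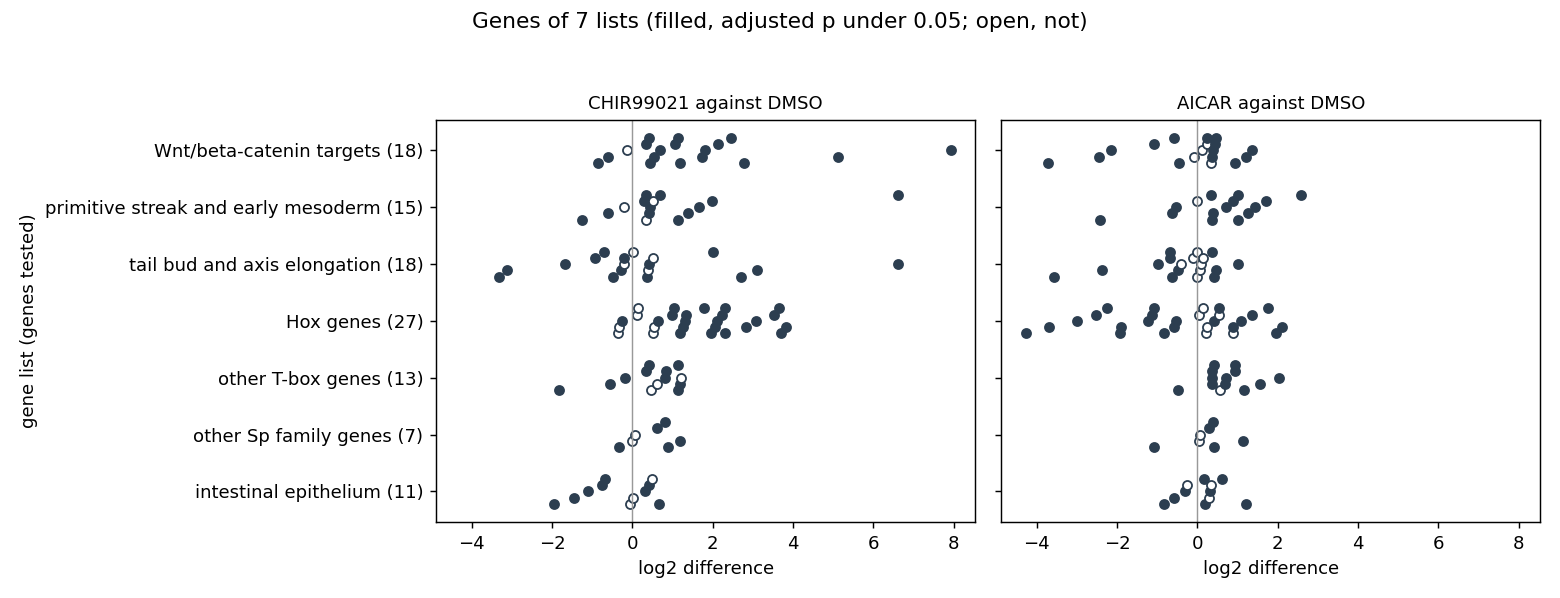
Log2 differences from DMSO for the tested genes of 7 lists, with CHIR99021 on the left and AICAR on the right; filled points have an adjusted p under 0.05, and the number tested stands beside each list. Wnt targets and Hox genes lie mostly to the right of 0 in CHIR99021, with medians of 1.10 and 1.33, and on both sides of 0 in AICAR; the 2 panels share the DMSO arrays.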

How the data were processed

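Per the file headers, the deposited scanner files hold spot intensity on a linear scale from Agilent Feature Extraction 10.7.3.1 (10.7 in the submitters' processing notes), a single dye per array. The deposited series matrix holds log2 values that followed the log2 processed signal on each array (r of 0.99962 to 0.99999), with a median of 5.18 and a 75th percentile of 8.90 on every array; their centring is not stated, and they were used only as an alternative. Values here are log2 processed signal minus the 75th percentile of each array, which lay between 567.3 and 617.4. Outlier spots (136 to 192 per array) were left out. Of 55681 probes, 27235 matched a gene of the RefSeq table (GRCm38.p6), and 37751 passed the filter of 3 of 9 arrays. The brightest probe per gene gave 26875 features. A linear model with the group as its term was fitted to all 9 arrays (limma 3.58.1, R 4.3.3; lmFit, then eBayes), with Benjamini-Hochberg adjusted p under 0.05 as the threshold. The fit was tested on simulated data. The number of arrays, 3 per group, limits the precision.

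The members, lists, alternatives and naming rule were chosen with earlier results of these data known. Named were the 5 genes, the 3 most alike for each, called neighbours differing at least 2-fold, and 6 fixed genes. Up to 3 (CHIR99021) and 2 (AICAR) called genes of each list were named by size. Urad, Chic1, Tfap2c, Lama1, Hoxc9 and Msgn1 were added after their values were seen. The normexp alternative used the median spot signal in place of the planned mean. Where a gene was on no array of a group well above background, its change is given as a bound.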

Additional observations from a re-analysis of the deposited data

How the results depend on the processing

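For the 5 genes, 14 differences were recomputed under 22 alternatives, and 299 of 300 values kept their side of the threshold. The 300 include 21 values of Cdx4 in CHIR99021 against DMSO and 21 against AICAR. Those lend no support, since Cdx4 passed the filter through the CHIR99021 arrays alone. The uncalled difference of T in AICAR changed sign without DMSO replicate 1 (-0.073) and without AICAR replicate 3 (-0.015), and no other value of these genes did. The value that crossed the threshold was Cdx2 in AICAR against DMSO with normexp, at -0.127 (adjusted p = 0.174), where the cause was not tested. The offset of 50 exceeds the dim signals, and across alternatives that difference ran from -2.27 to -0.127. T in CHIR99021 ran from 5.67 to 8.45 and Cdx4 from 0.55 to 3.54. With the 5th percentile as the floor, the log2 bounds were 0.015 (Cdx2, AICAR against DMSO), 7.29 (Cdx2, CHIR99021 against AICAR), 1.06 (Cdx4, CHIR99021 against DMSO) and 1.07 (Cdx4, CHIR99021 against AICAR). The filter on all 9 arrays gave no value for T, Cdx2 or Cdx4. The slide could not be a block, since each holds 1 group.

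Scaling to 8 spike-in probes moved the median of all features by 0.13 in AICAR against DMSO and by -0.195 between the treatments. It called 4537 features higher in CHIR99021 against DMSO (8182 otherwise), 4517 lower in AICAR against DMSO (7944) and 4186 higher between the treatments (9723). The share of calls that were higher was 48.6%, 66.5% and 34.6% with spike-ins, against 59.7%, 51.1% and 59.5%; between the treatments it was 50.7% with quantile normalization and 50.2% with the series matrix. With the group mean taken from each feature, the remaining deviations of same-numbered samples correlated at -0.055 to 0.088. Those of differently numbered samples correlated at -0.129 to 0.109, and 4 of 18 matches were best with the own number. These values gave no sign of pairing by number. With so few arrays in a group, and each group on its own slide, they cannot decide whether samples were paired. With the replicate block, 7613 features were higher and 5101 lower in CHIR99021 against DMSO, and 7947 and 7521 in AICAR against DMSO. Between the treatments the counts were 9294 and 6392. No call of T, Sp5, Cdx1 or Cdx2 changed.

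For the other genes named by the rule, 2993 values stayed on their side of the threshold, 85 lost the call and 41 gained it. Gpa33 in CHIR99021 turned to -0.21 with the mean of its probes. List counts moved by over 1.5 times in 99 of 1638 values. Signals near background limit T, Cdx2 and Cdx4, and the sizes given for other dim genes.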
